A study of Mus musculus with 12 samples.

Results

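The enzymes that build fatty acids from acetyl-CoA and then elongate and desaturate them were followed at the RNA level in FL5.12 cells carrying MycER. The group holds 10 genes, picked by function, of the 21671 genes in the deposited table: Acly and Acss2, which make cytosolic acetyl-CoA, Acaca and Fasn, which make palmitate, the elongases Elovl6 and Elovl5, the stearoyl-CoA desaturases Scd1 and Scd2, and the polyunsaturated fatty acid desaturases Fads1 and Fads2. Of these, 9 passed the filter on low values and were tested among 9745 genes, while Scd1 did not. FL5.12 is an interleukin 3-dependent lymphoid precursor line from BALB/c mice, and MycER is a Myc protein fused to a hormone-binding domain that becomes active with 4-hydroxytamoxifen (OHT). MycER was expressed constitutively from a retroviral vector in all groups, in an antibiotic-selected population. No group was without MycER, so that effects of OHT apart from MycER cannot be told apart from those of MycER.

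RNA was depleted of ribosomal RNA and sequenced, with 3 biological replicates in each of 4 conditions. Untreated cells received neither agent. OHT cells received 100 nM OHT, 48 h of priming followed by 24 h, or 72 h in all. IACS cells received 135 nM IACS-010759, an inhibitor of complex I of the mitochondrial respiratory chain, for 24 h, and OHT_IACS cells received the inhibitor for 24 h after 48 h of OHT. The methods place cells in medium of low glucose before work with the inhibitor, whereas the labels give normal growth medium for cells without it. A difference in medium, if there was one, cannot be told apart from the inhibitor.

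Palmitate, a saturated fatty acid, is built by fatty acid synthase from malonyl-CoA, which acetyl-CoA carboxylase makes from acetyl-CoA. Elovl6 lengthens palmitate to stearate, Scd enzymes turn stearate into oleate, and Fads2 and Fads1 put double bonds into essential fatty acids that Elovl5 lengthens in between. Most of these genes are known targets of the SREBP transcription factors, membrane proteins that are held in the endoplasmic reticulum by Insig proteins when sterols are abundant, and proliferating cells use the pathway to make membrane.

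The deposited unit was RPKM, the reads on a gene scaled to its length and to the library total. The steps between RPKM values gave library totals of 10376530 to 14550158 reads, with 4199265 to 5762338 reads on genes. OHT replicates 1 and 3 had the smallest totals (10376530 and 10770476), below every untreated library (13375674 at the lowest). Within conditions, reads on genes rose with the library total. On log2 scales the median slope was 0.514 at 0.6 to 1 reads per base and 1.21 at 0.1 to 0.3. RPKM of densely covered genes thus ran higher in small libraries, and RPKM of sparsely covered genes lower. Scd2 (0.830 reads per base) and Fasn (0.615) fell in the first of these classes, and Elovl6 (0.290), Acaca (0.217) and Fads2 (0.193) in the second. At 0.3 to 0.6 reads per base, the class of Acly (0.459), Fads1 (0.451) and Elovl5 (0.396), the median slope was 0.868. Below 0.1, where Acss2 lay (0.0601), it was 1.39.

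Markers of the labelled lineage were partly absent. Of 16 genes of B-lymphoid precursors, 5 had a median of at least 1 RPKM over the 12 libraries, among them Csf2rb (43.6), Ptprc (17.0) and Il3ra (7.64), while Pax5, Rag1, Il7r, Blnk and Vpreb2 were listed at 0 throughout. Adipocyte markers summed to at most 0.253 RPKM in any library and hepatocyte markers to at most 0.146. The 3 erythroid markers in the table summed to 14.4 to 15.3 RPKM in untreated, 12.7 to 14.0 in OHT, 8.21 to 9.71 in IACS and 9.39 to 10.1 in OHT_IACS cells, with Klf1 (median 8.23) the main source. The 5 T cell markers in the table summed to 2.15 to 2.56 RPKM in untreated, 1.23 to 1.399 in OHT, 2.46 to 2.53 in IACS and 1.86 to 1.98 in OHT_IACS cells. The 5 macrophage markers summed to 10.7 to 12.3, 6.74 to 10.6, 10.7 to 13.3 and 9.01 to 10.02 RPKM in the same order, and 4 fibroblast markers to at most 0.343 in any library. The part of these markers in the results below was not tested. In bulk samples, fewer cells of a kind and less RNA per cell cannot be told apart.

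Scd2 had the highest level of the group in untreated cells, at 67.9 ± 1.52 RPKM (SD, n = 3), above 98.7% of tested genes. Fasn followed at 46.8 ± 2.49, then Fads1 at 38.2 ± 0.155, Acly at 34.5 ± 0.603, Elovl5 at 32.9 ± 1.35, Elovl6 at 24.5 ± 0.954, Acaca at 16.4 ± 1.07 and Fads2 at 15.9 ± 0.540. Acss2 lay at 4.45 ± 0.175 and Scd1 at 0.481 ± 0.0278. All of these are levels per length of gene. The libraries of Acly and Elovl5 overlapped, as did those of Acaca and Fads2, and no other neighbours in this order did. Scd2 alone made up 24.1% of the summed RPKM of the 10 genes in untreated cells (22.6% to 25.1% over all libraries), and Scd1, its close relative and the main desaturase of liver and fat, 0.171%. The 10 genes together summed to 282 ± 4.08 RPKM in untreated, 315 ± 15.1 in OHT, 248 ± 8.87 in IACS and 278 ± 6.07 in OHT_IACS cells.

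**Figure D1:**
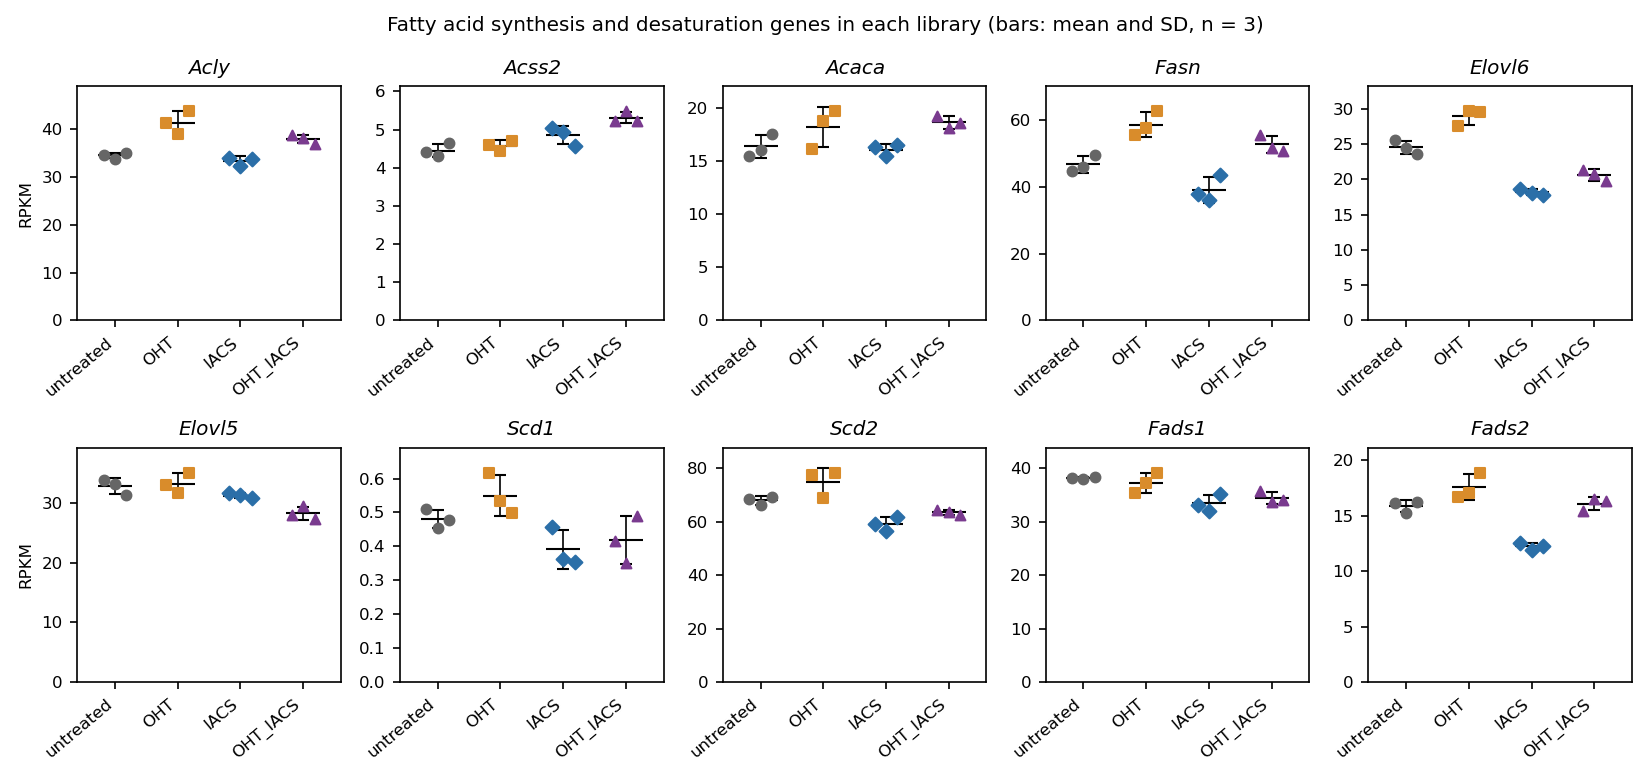
RPKM of each of the 10 genes (vertical axes from 0, each with its own scale) in the 12 libraries, by condition (horizontal axes), with bars for the mean and SD of 3 replicates. Elovl6 and Fads2 lie lower in the 3 IACS libraries than in any untreated library, and Scd1 stays below 0.62 RPKM throughout.

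Since several of the genes moved together, the promoter windows were inspected. RefSeq (GRCm38.p6) gave the 250 bases before a start for 7 of the 10 genes, not for Scd1, Scd2 and Fads1. The start given for Acaca lies 65766 bases inside the gene as GENCODE vM21 annotates it, so that its window is not the one before the first exon and was left out. The other 6 lead up to starts 0 to 243 bases inside the annotated gene. The 243 belong to Fads2, of whose window only 7 bases lie before the annotated gene. Those of Fasn, Elovl5 and Elovl6 are shown because Fasn and Elovl6 changed with both agents and Elovl5 holds the only E-box of the 6. They lie at chr11:120824548-120824797 (minus strand), chr9:77917115-77917363 (plus strand) and chr3:129532136-129532354 (plus strand), given up to the first annotated exon, with capitals for matches to the motifs searched:
Fasn: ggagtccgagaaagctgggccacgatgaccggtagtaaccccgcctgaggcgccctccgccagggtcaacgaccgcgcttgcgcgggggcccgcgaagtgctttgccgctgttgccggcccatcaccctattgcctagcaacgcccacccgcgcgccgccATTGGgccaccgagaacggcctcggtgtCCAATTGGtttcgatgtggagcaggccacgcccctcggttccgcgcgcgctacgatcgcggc
Elovl5: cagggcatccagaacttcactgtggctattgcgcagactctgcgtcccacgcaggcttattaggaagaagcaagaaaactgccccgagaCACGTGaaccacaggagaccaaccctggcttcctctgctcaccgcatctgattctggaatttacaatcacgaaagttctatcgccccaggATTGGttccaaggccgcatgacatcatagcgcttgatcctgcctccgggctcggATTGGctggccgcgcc
Elovl6: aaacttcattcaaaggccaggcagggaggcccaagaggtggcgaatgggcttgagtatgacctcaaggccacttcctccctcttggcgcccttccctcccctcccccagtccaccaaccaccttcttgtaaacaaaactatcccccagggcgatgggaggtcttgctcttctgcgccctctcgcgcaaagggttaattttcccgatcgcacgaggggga
Both strands were searched for the SREBP site TCACNCCAC, the E-box CACGTG bound by Myc and other factors, the NF-Y box CCAAT, the Sp1 box GGGCGG and the ATF4 site TGANGCAA. The Fasn window held 3 NF-Y boxes, of which a pair overlap, and the Elovl5 window 1 E-box, 161 to 156 bases before the start, and 2 NF-Y boxes. NF-Y boxes occurred in 33.8% of 32851 promoter windows and the E-box in 6.02%. The Acly and Acss2 windows held 4 Sp1 boxes each, the Fads2 window 1, and Acss2 also 1 NF-Y box, where 32.7% of all windows held an Sp1 box. The Fads2 box (186 to 181 bases before the start) lay inside the annotated gene, as did the Acss2 NF-Y box and its nearest Sp1 box. The Elovl6 window held none of the 5 motifs. No match to the SREBP or the ATF4 letters, found in 1.05% and 3.12% of all windows, lay in the 6 windows, which says only that these letters are not there.

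To see which members respond to loss of complex I activity without active MycER, IACS cells were compared with untreated cells. In this comparison 5 of the 9 tested genes fell (Elovl6, Fads2, Fasn, Scd2 and Fads1). Elovl6 and Fads2 were the 2 that passed without untreated replicate 2, IACS replicate 1 or IACS replicate 2, and 3 genes passed without untreated replicate 1 or 3. None rose, by limma, at an unadjusted p under 0.05 or by limma voom on the reads worked out from the RPKM steps. Over all 9745 genes, 7.74% fell and 8.15% rose (limma on log2 of scaled RPKM + 0.1, Benjamini-Hochberg adjusted p under 0.05, as for every call here). Shares of all genes refer to these limma calls throughout, and none are given for limma voom or an unadjusted p. With a library left out, 951 to 1809 of all tested genes passed, against 1548 with all libraries. The median log2 change of the 9 genes was -0.22, beside 0.00 over all genes. In OHT-primed cells the same agent was tested as OHT_IACS against OHT, where 3 of the 9 fell (Elovl6, Elovl5 and Scd2) and Acss2 rose, against 11.8% and 11.9% of all genes. There the median was -0.12, beside -0.01 over all genes. In that comparison, 2 rather than 4 genes passed, Elovl6 and Elovl5, when only the 2 groups compared entered the fit and without OHT replicate 3 or any OHT_IACS replicate. Over all tested genes, 1647 rather than 2310 passed with only those groups in the fit, and 1524 to 2951 with a library left out. The erythroid markers named above also lay lower with the inhibitor, at 14.4 to 15.3 RPKM in untreated against 8.21 to 9.71 in IACS cells.

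The response to OHT alone, which asks what MycER activation does, comprised rises of Fasn, Acly and Elovl6, or 3 of 9 genes, with no fall by limma, at an unadjusted p under 0.05 or by limma voom. Of all genes, 18.2% rose and 18.2% fell. Without OHT replicate 2, 5 genes passed, with Scd2 and Fads2 in addition, while over all tested genes 4123 rather than 3546 passed. The T cell, macrophage and erythroid markers lay lower in OHT than in untreated cells without overlap, at the sums given above. The median change of the 9 genes was 0.12, against 0.01 for all genes. With inhibitor present in both groups (OHT_IACS against IACS), Fasn, Fads2, Acaca, Acly and Elovl6 rose, 5 of 9, where 12.3% of all genes rose and 14.2% fell, and the median was 0.19. No fall passed by limma, while limma voom called 1, that of Elovl5. Without IACS replicate 1 or 2 or OHT_IACS replicate 1, 3 genes passed (Fasn, Elovl6 and Fads2). Over all tested genes, 1880 to 2840 passed with a library left out, against 2585 with all libraries. Against untreated cells, OHT_IACS cells had higher Acss2 and lower Elovl6, Elovl5 and Fads1, 1 rise and 3 falls, where 18.5% and 20.9% of all genes passed. The comparisons share groups of libraries and are not independent of each other.

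Whether OHT changed the response to the inhibitor was tested as the interaction. None of the 9 genes passed, and 14 of 9745 genes did (0.144%). At an unadjusted p under 0.05, where no share of all genes is given, only Fads2 passed. Fads2 did so by limma and by limma voom, which also called none of the 9 after adjustment. The difference in its response between primed and nonprimed cells was 0.27 on the log2 scale (95% interval 0.12 to 0.43, adjusted p = 0.155).

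**Figure D2:**
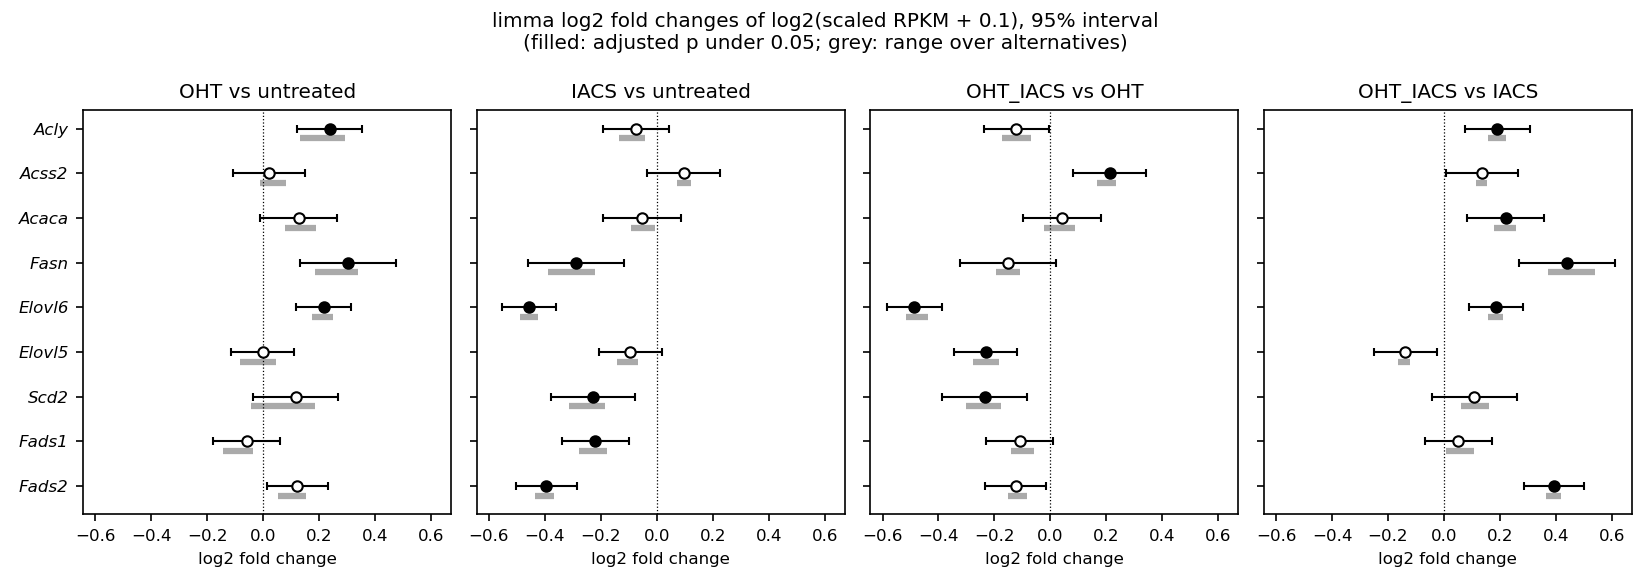
Log2 fold changes of the 9 tested genes (vertical axis) in 4 comparisons, on the log2(scaled RPKM + 0.1) scale, with 95% intervals. Filled points had a limma adjusted p under 0.05, and grey bars span the estimates over the alternative settings. Elovl6 lies at -0.46 and -0.49 in the 2 comparisons with the inhibitor.

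Elovl6, which takes palmitate to stearate, showed the lowest adjusted p of the group with the inhibitor in both settings. Its RPKM were 25.5, 24.5 and 23.6 in untreated, 27.5, 29.7 and 29.6 in OHT, 18.6, 18.1 and 17.8 in IACS and 21.3, 20.8 and 19.7 in OHT_IACS cells. The 4 conditions did not overlap at all, with the order OHT, untreated, OHT_IACS, IACS. Elovl6 fell by 27.2% in nonprimed cells (log2 change -0.46 ± 0.045 SE, adjusted p = 2.55e-05). With OHT priming it fell by 28.6% (-0.49 ± 0.045, adjusted p = 9.75e-06). It rose with OHT by 16.1% without inhibitor (0.22, adjusted p = 0.00239) and by 13.8% with it (0.19, adjusted p = 0.00823). The interval of the difference between primed and nonprimed cells ran from -0.17 to 0.11. The calls on Elovl6 were kept under all 23 alternatives in each of these comparisons.

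Elovl5, the elongase of polyunsaturated fatty acids, moved differently. Its RPKM ran from 31.4 to 34.0 in untreated, 31.72 to 35.2 in OHT and 30.9 to 31.71 in IACS cells. The untreated range overlapped with both others, and the OHT and IACS ranges just failed to meet. In OHT_IACS cells its RPKM were 28.1, 29.5 and 27.4, below all other libraries. It fell by 14.9% in OHT_IACS against OHT (-0.23 ± 0.052, adjusted p = 0.00656) and by 15.0% against untreated cells (-0.23, adjusted p = 0.0031). Neither agent alone gave a call, with changes of -0.00 for OHT (adjusted p = 0.985) and -0.10 for IACS (adjusted p = 0.238), although the latter passed with the log2 library total as covariate (-0.14, adjusted p = 0.0352). In OHT_IACS against IACS the change was -0.14 (adjusted p = 0.066), which passed in 5 of 23 alternatives, limma voom among them (adjusted p = 0.0492). The difference between the responses to the inhibitor in primed and nonprimed cells was -0.14 (95% interval -0.29 to 0.02) and did not pass.

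Fads2, the delta-6 desaturase that opens the polyunsaturated pathway, was lowest in IACS cells. Its RPKM were 16.1, 15.2 and 16.2 in untreated, 16.7, 17.1 and 18.9 in OHT, 12.5, 11.9 and 12.3 in IACS and 15.4, 16.5 and 16.3 in OHT_IACS cells. The IACS libraries lay below all 9 others, and the OHT_IACS libraries overlapped with the untreated ones. Fads2 fell by 24.0% with inhibitor in nonprimed cells (-0.40 ± 0.051, adjusted p = 0.000219) and was higher by 31.4% in OHT_IACS than in IACS cells (0.39 ± 0.051, adjusted p = 9.17e-05), both under all 23 alternatives. In primed cells the change with inhibitor was -0.12 (95% interval -0.23 to -0.02) and did not pass (adjusted p = 0.0911).

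Fads1, the delta-5 desaturase, lies next to Fads2 on chromosome 19 in the opposite direction. Its RPKM were 38.2, 38.1 and 38.4 in untreated and 33.2, 32.1 and 35.2 in IACS cells, which did not overlap. It fell by 14.1% (-0.22 ± 0.056, adjusted p = 0.0172). This call was lost without untreated replicate 1 or 2 or IACS replicate 1 or 2 (adjusted p 0.0525 to 0.0704). OHT libraries (35.4 to 39.2) and OHT_IACS libraries (33.7 to 35.8) overlapped, and the fall against untreated cells of 11.1% (adjusted p = 0.0271) was lost without any of the untreated replicates or without OHT_IACS replicate 2 or 3 (0.0611 to 0.105). Per length, the RPKM of Fads1 was 2.41 ± 0.0753 times that of Fads2 in untreated, 2.13 ± 0.0534 in OHT, 2.73 ± 0.111 in IACS and 2.15 ± 0.153 in OHT_IACS cells.

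Fasn, the synthase that makes palmitate, was high in both OHT-primed conditions. Its RPKM were 44.8, 45.9 and 49.6 in untreated, 55.5, 57.6 and 62.7 in OHT, 37.9, 35.9 and 43.5 in IACS and 55.6, 51.8 and 50.7 in OHT_IACS cells. Every OHT_IACS library lay above every untreated one and within or below the range of OHT, and every IACS library lay below the untreated ones. Fasn rose by 23.3% with OHT (0.30 ± 0.080, adjusted p = 0.01) and by 35.6% when inhibitor was present in both groups (0.44 ± 0.080, adjusted p = 0.00121). The former did not pass once the log2 library total entered as covariate (0.19, adjusted p = 0.122) or under quantile normalization. Fasn fell by 18.2% with inhibitor in nonprimed cells (-0.29, adjusted p = 0.0254), a call lost without untreated replicate 2 or 3 or IACS replicate 1 or 2 (0.0626 to 0.0991). In primed cells its change was -0.15 (adjusted p = 0.185, 95% interval -0.32 to 0.02).

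Acaca, the carboxylase that supplies Fasn with malonyl-CoA, changed less. Its RPKM were 15.5, 16.1 and 17.6 in untreated, 16.1, 18.8 and 19.7 in OHT, 16.3, 15.4 and 16.5 in IACS and 19.3, 18.1 and 18.6 in OHT_IACS cells. The first 3 conditions overlapped, and OHT_IACS lay above untreated and IACS cells. Its only call was a rise of 16.4% in OHT_IACS against IACS (0.22 ± 0.064, adjusted p = 0.0225), lost without IACS replicate 1 or 2 or OHT_IACS replicate 1 or 3 (0.0619 to 0.095). Against untreated cells the adjusted p was 0.0549, past the threshold in 9 of 23 alternatives. The inhibitor alone gave -0.05 (95% interval -0.19 to 0.09). The Fasn to Acaca ratio of RPKM was 2.86 ± 0.0354 in untreated, 3.23 ± 0.191 in OHT, 2.43 ± 0.181 in IACS and 2.83 ± 0.0823 in OHT_IACS cells.

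Acly, which cleaves citrate to cytosolic acetyl-CoA, had RPKM of 34.6, 33.8 and 35.0 in untreated, 41.3, 38.9 and 43.7 in OHT, 34.0, 32.3 and 33.8 in IACS and 38.7, 38.1 and 36.9 in OHT_IACS cells. Both OHT-primed conditions lay above both nonprimed ones, library by library. Acly rose with OHT by 17.9% (0.24 ± 0.054, adjusted p = 0.00417), under all 23 alternatives, and with inhibitor present by 14.1% (0.19, adjusted p = 0.0194). The second call was lost without IACS replicate 1 or 2 or OHT_IACS replicate 1 (0.0554 to 0.0907). Its change with inhibitor was -0.08 in nonprimed (95% interval -0.19 to 0.04) and -0.12 in primed cells (adjusted p = 0.12). Neither passed, although both did with the log2 library total as covariate (-0.14 and -0.11, adjusted p = 0.0167 and 0.0166).

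Acss2, which makes acetyl-CoA from acetate, rose with the inhibitor in primed cells, where no other member rose. Its RPKM were 4.42, 4.30 and 4.64 in untreated, 4.60, 4.43 and 4.70 in OHT, 5.05, 4.94 and 4.58 in IACS and 5.23, 5.48 and 5.23 in OHT_IACS cells. The OHT_IACS libraries lay above all 9 others, and the untreated and IACS libraries overlapped. In nonprimed cells the change with inhibitor was 0.10 and did not pass (adjusted p = 0.312). The rise against OHT was 15.8% (0.21 ± 0.060, adjusted p = 0.0221), lost without OHT replicate 3 or any OHT_IACS replicate (0.0506 to 0.0646), under quantile normalization and with only the groups compared, and that against untreated cells 17.3% (0.23, adjusted p = 0.00822, past the threshold under all 23 alternatives). The counting length of Acss2 was 9533 bases, against 3609 for its longest transcript and 10163 for all its exons joined in GENCODE vM21. Its exons (chr2:155517948-155585724, plus strand, GRCm38) share 395 bases with Gss, 197 with Ggt7 and 335 with Acss2os, all on the opposite strand. Whether counting used the strand is not given in the sources used here, so that part of its reads could come from these neighbours.

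Scd2, a stearoyl-CoA desaturase that makes oleate, had RPKM of 68.3, 66.2 and 69.1 in untreated, 77.3, 68.8 and 78.3 in OHT, 59.0, 56.6 and 61.7 in IACS and 64.2, 63.5 and 62.6 in OHT_IACS cells. Libraries with inhibitor lay below those without it. It fell by 14.6% in nonprimed cells (-0.23 ± 0.070, adjusted p = 0.0412) and by 15.0% in primed cells (-0.23, adjusted p = 0.0278). The first call was lost without any 1 of 9 libraries (all but IACS replicate 3 and OHT replicates 1 and 2, adjusted p 0.0544 to 0.137) and without the filter on low values, and the second without OHT replicate 1 or 3 or any OHT_IACS replicate (0.0595 to 0.0939) and with only the groups compared. With library total (log2) as a covariate both passed, at changes of -0.31 and -0.22. The change with OHT was 0.12 (adjusted p = 0.212), and the OHT replicates 1 and 3, at 77.3 and 78.3, were the smallest libraries.

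Scd1 was counted with 19 to 36 reads per library, at 0.455 to 0.510 RPKM in untreated, 0.499 to 0.618 in OHT, 0.353 to 0.459 in IACS and 0.350 to 0.491 in OHT_IACS cells. The untreated range overlapped with those of all other conditions. Without the filter on low values its change was -0.27 ± 0.18 with inhibitor (adjusted p = 0.447) and 0.14 ± 0.18 with OHT (adjusted p = 0.65), so that changes of the size seen in Scd2 were not detectable at this depth. The Scd2 to Scd1 ratio of RPKM ran from 125 to 181 over the 12 libraries.

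Ratios within a library do not depend on how that library is scaled. They can still move with depth, because reads of densely and sparsely covered genes followed the library total with different slopes, as given above, and the genes of each pair differed in density (Fasn 0.615 and Acaca 0.217 reads per base, Fads1 0.451 and Fads2 0.193, Elovl5 0.396 and Elovl6 0.290). Fasn to Acaca was highest in the smallest library of untreated (2.89, replicate 1), OHT (3.44, replicate 1) and IACS cells (2.64, replicate 3). In OHT_IACS cells, with totals of 11792608 to 11913079, it was lowest in the smallest library (2.73, replicate 3). The part of depth in the ratios was not tested. The Elovl6 to Elovl5 ratio was 0.746 ± 0.00927 in untreated, 0.869 ± 0.0577 in OHT, 0.580 ± 0.00554 in IACS and 0.727 ± 0.0270 in OHT_IACS cells. The conditions did not overlap except untreated with OHT_IACS (exact permutation test over libraries, two-sided, p = 0.4). For each other pair of this ratio that was compared, p was 0.1, the smallest that 3 against 3 libraries allow (0.167 after Benjamini-Hochberg adjustment over the 20 tests on 4 ratios). Fads1 to Fads2 was higher in every IACS library (2.65 to 2.86) than in any other, and its OHT and OHT_IACS ranges overlapped (exact permutation p = 0.9).

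**Figure D3:**
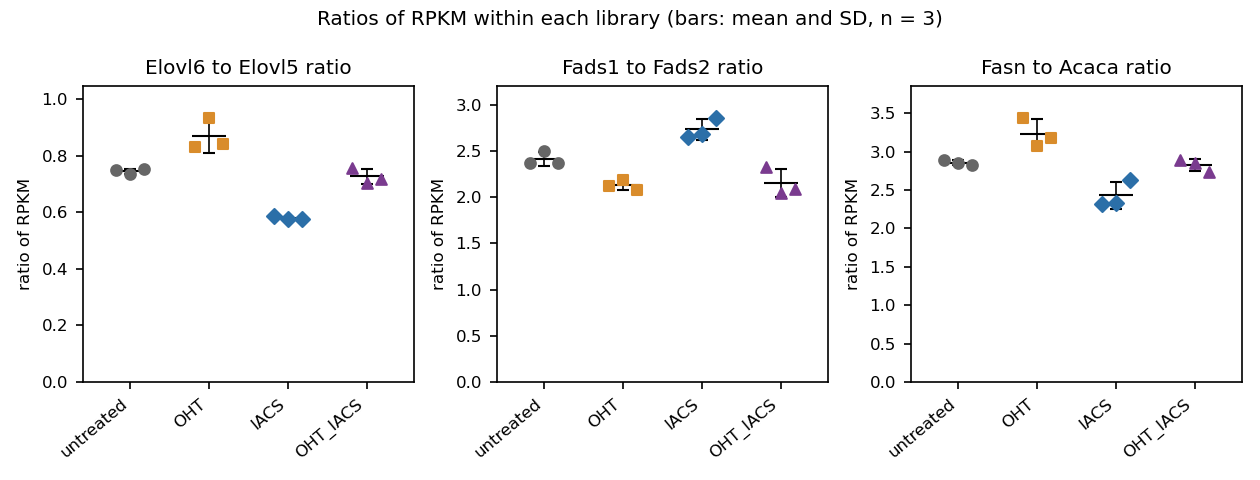
Ratios of RPKM (vertical axes from 0) within each of the 12 libraries, by condition, for Elovl6 to Elovl5, Fads1 to Fads2 and Fasn to Acaca, with bars for the mean and SD of 3 replicates. IACS cells have the lowest Elovl6 to Elovl5 ratio (0.580) and the highest Fads1 to Fads2 ratio (2.73).

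The genes whose levels followed those of the members most closely over the 12 libraries were read off as a description, by Pearson correlation of scaled log2 values, which also reflects the shared depth of each library. For Elovl6 they included Cyp51 (r = 0.972), an enzyme of sterol synthesis. For Scd2 they were Tfrc (0.959), the transferrin receptor, Mcm2 (0.952) and Srsf11 (0.945).

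Among the regulators of the pathway (SREBP, LXR and ChREBP systems, 11 of 14 tested), 3 fell with the inhibitor in nonprimed cells (Insig1, Srebf1 and Srebf2). None rose, by limma, at an unadjusted p under 0.05 or by limma voom. Insig1, which retains SREBP precursors in the endoplasmic reticulum, had a mean of 23.9 ± 0.212 RPKM in untreated and 13.2 ± 1.02 in IACS cells (log2 change -0.88 ± 0.044, adjusted p = 7.79e-08), and 26.4 ± 1.01 in OHT against 15.3 ± 0.341 in OHT_IACS cells (-0.79, adjusted p = 1.42e-07). In both settings the ranges were far apart. Srebf2 fell with inhibitor in nonprimed cells (-0.28, adjusted p = 0.0017) and rose with OHT (0.34, adjusted p = 0.000129), while Srebf1, the SREBP gene most tied to fatty acid synthesis, fell with OHT (-0.27, adjusted p = 0.00151). In primed cells 4 regulators fell with inhibitor (Insig1, Insig2, Mlx and Srebf2). Over all genes, 7.74% fell and 8.15% rose with inhibitor in nonprimed cells, and 11.8% and 11.9% in primed cells. With OHT, 18.2% of all genes rose and 18.2% fell. These shares also apply to the counts of the lists that follow.

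The sterol enzymes, which share SREBP control, gave the highest count. Of 19 tested, 17 fell in IACS against untreated (median -0.44) and 18 in OHT_IACS against OHT (median -0.32), and none rose, by limma, at an unadjusted p under 0.05 or by limma voom. Lss, the lanosterol synthase, changed by -0.63 ± 0.055 (adjusted p = 9.32e-06) in nonprimed cells and Cyp51 by -0.59 ± 0.052. With OHT, 7 rose and 2 fell, Mvk (0.67, adjusted p = 7.85e-05) and Lss (0.44) among the rises.

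Among genes that supply acetyl-CoA, NADPH and citrate (8 of 9 tested), Idh1 fell with the inhibitor and was the only call in either setting, by limma and by limma voom. Idh1, a cytosolic source of NADPH, had 8.29 ± 0.533 RPKM in untreated and 3.41 ± 0.524 in IACS cells (-1.29 ± 0.090, adjusted p = 7.64e-07), and fell in primed cells by 0.76 on the log2 scale (adjusted p = 7.67e-05). With OHT, 5 rose (G6pdx, Idh1, Me1, Me2 and Pgd), among them G6pdx, the entry enzyme of the pentose phosphate pathway (0.31, adjusted p = 0.000511), and Me2 (0.24), which did not pass with the log2 library total as covariate (adjusted p = 0.0576).

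The partners of the elongases and desaturases moved less. Of 6 tested elongation genes none passed with the inhibitor in either setting by limma or limma voom, and at an unadjusted p under 0.05 there was 1 rise in nonprimed cells and 2 falls in primed cells. Hsd17b12, the ketoreductase of the elongation cycle (0.24, adjusted p = 0.00122), and Elovl1 (0.16, lost without untreated replicate 1, adjusted p = 0.0816) rose with OHT. Of 4 desaturase partners and other desaturases, none passed by limma with inhibitor in nonprimed cells, where limma voom called 1 fall and an unadjusted p under 0.05 gave 1 rise and 1 fall. In primed cells Cyb5a, the cytochrome b5 that feeds electrons to desaturases, rose (0.19, adjusted p = 0.0337). That call was lost without OHT replicate 2 or 3 or OHT_IACS replicate 2 or 3 (0.0636 to 0.116). With OHT, Cyb5r3, its reductase, fell (-0.26, adjusted p = 0.00122) and Degs1 rose (0.24, lost with the log2 library total as covariate, adjusted p = 0.0779).

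Around Acaca, 5 of 7 genes of the carboxylase and cofactor list were tested. Hlcs, which attaches biotin to carboxylases, rose with inhibitor in nonprimed (0.43, adjusted p = 0.00146) and primed cells (0.50, adjusted p = 0.000397). Mlycd, which breaks down malonyl-CoA, fell with OHT (-0.55, adjusted p = 0.00035) and rose with inhibitor in primed cells (0.57, adjusted p = 0.000694), where Aasdhppt fell. Of 8 kinase genes of the AMPK system, which inactivates the carboxylase by phosphorylation, 2 fell in nonprimed cells (Camkk2 and Stk11) and 3 in primed cells. Of all genes, 7.74% and 11.8% fell in these comparisons. Camkk2 changed by -0.29 in nonprimed cells (adjusted p = 0.0132, and 0.0556 without IACS replicate 3). Stk11 changed by -0.21 (adjusted p = 0.0211), a call lost without scaling, with the log2 library total as covariate (0.0518) and without untreated replicate 1 or 3 or IACS replicate 3 (0.0587 to 0.0846). Of 8 tested genes of mitochondrial fatty acid synthesis none passed with the inhibitor by limma or limma voom (1 fall in nonprimed cells at an unadjusted p under 0.05), and 4 rose with OHT, among them Lias (0.28, adjusted p = 0.00207) and Ndufab1 (0.26, lost with the log2 library total as covariate, adjusted p = 0.0802). Of all genes, 18.2% rose with OHT.

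Downstream of the members, 3 of 7 acyl-CoA synthetases fell in IACS cells, where Acsl4, which activates polyunsaturated fatty acids, changed by -0.32 ± 0.042 (adjusted p = 0.000253) and Slc27a4 by -0.59. In primed cells Acsl4 fell by 0.47 on the log2 scale (adjusted p = 7.14e-06), with Acsl1 and Acsl3 also lower and Acsf3 higher. Of 16 genes of glycerolipid acyltransfer and storage, 3 fell with inhibitor in nonprimed cells, Lpcat1 (-0.50, adjusted p = 0.000761), Plin2 (-0.49) and Lpin1, and Pnpla2 rose. Over all genes, 7.74% fell and 8.15% rose in nonprimed cells, and 11.8% and 11.9% in primed cells. In primed cells 5 glycerolipid genes fell (4 by limma voom). With OHT, 5 rose, Gpam among them (0.45, adjusted p = 0.000128), and 7 fell, where 18.2% of all genes rose and 18.2% fell.

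Fatty acid oxidation genes, the opposing pathway, gave 5 rises of 18 tested in IACS cells, Decr1 (0.33, adjusted p = 0.0141) and Hadha (0.16) among them. No fall passed by limma, while limma voom gave 4 rises and 1 fall and an unadjusted p under 0.05 gave 6 rises and 3 falls. By limma at an adjusted p under 0.05, 8.15% of all genes rose and 7.74% fell. In primed cells 4 rose (Acadl, Decr1, Eci1 and Etfa) and 2 fell (Acaa2 and Acadm), where 11.9% of all genes rose and 11.8% fell. By limma voom there were 3 rises and 0 falls. In nonprimed cells Decr1 was lost without untreated replicate 1 or 3 (0.0508 to 0.0608), and Hadha without any untreated replicate or without IACS replicate 1 or 2 (0.0541 to 0.0799). With OHT, 1 rose and 4 fell (0 and 5 by limma voom), where 18.2% of all genes rose and 18.2% fell. Cpt1a, which admits fatty acids into mitochondria and is inhibited by malonyl-CoA, went from 12.2 ± 0.592 to 6.24 ± 0.666 RPKM (-0.98 ± 0.064, adjusted p = 1.56e-07).

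**Figure D4:**
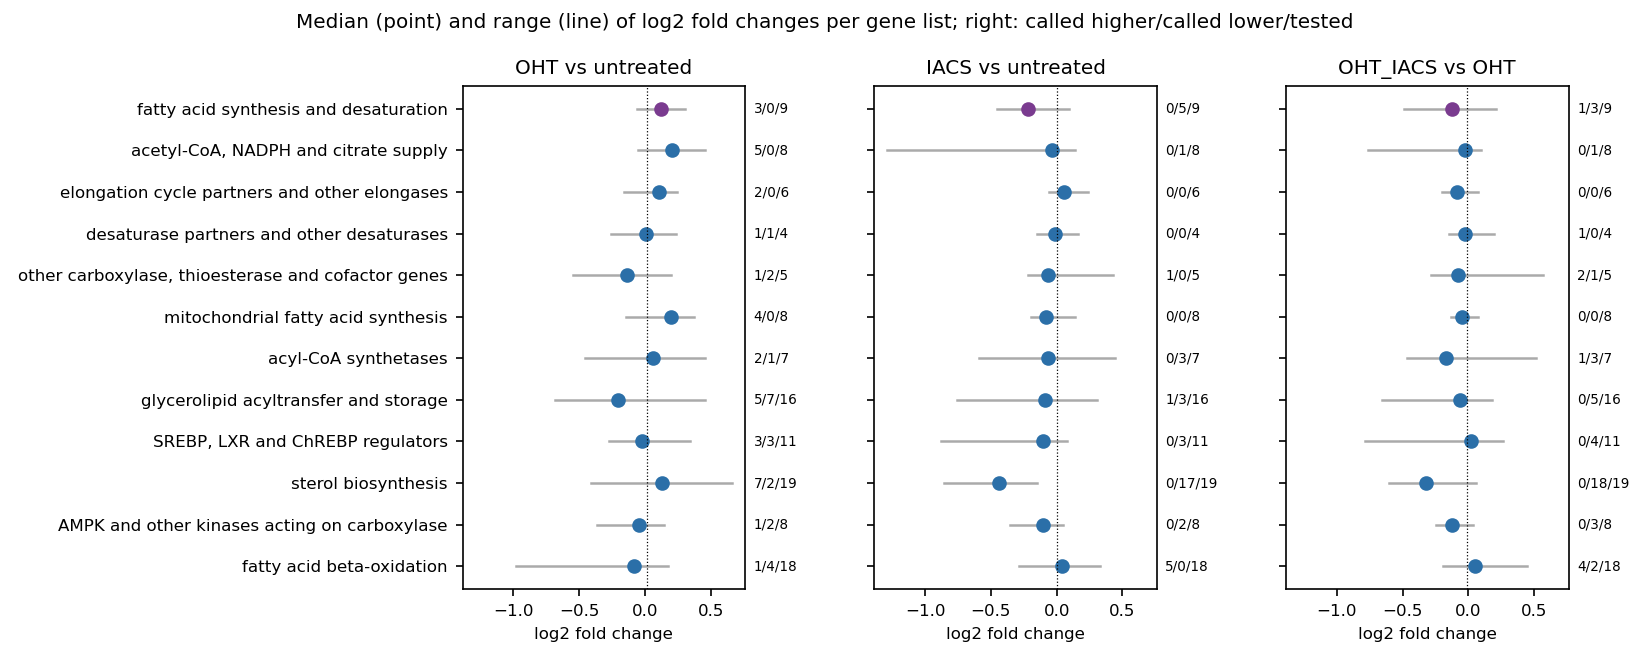
Median (points) and range (lines) of limma log2 fold changes for the 12 gene lists in 3 comparisons, with numbers of genes called higher, called lower and tested at the right of each panel and a dotted line at the median of all genes. The sterol list has the lowest median with the inhibitor (-0.44 and -0.32), and the fatty acid list lies at -0.22 and -0.12.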

How the data were processed

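The 12 RNA-seq libraries of FL5.12 MycER cells (4 conditions, 3 biological replicates per condition) were grouped by their labels. The values deposited by the authors were RPKM per gene in every library, beside 6 columns of their own comparisons (log2 fold changes and adjusted p-values), which were not used. The submitters' processing notes name TopHat2 2.0.8, SAMtools, featureCounts 1.4.5-p1, DESeq2 and mm9. Strandedness of counting is not given in the sources used here. The values of 15451 genes above 0 were whole multiples of a step within 0.0001 reads, from which reads, lengths and totals were worked out. The remaining 6220 of 21671 genes were at 0.

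Each library was divided by the median, over genes, of its ratio to the geometric mean of all libraries (factors 0.974 to 1.03). Genes with at least 1 RPKM in at least 3 libraries (9745) were tested with limma 3.58.1 (R 4.3.3) on log2(RPKM + 0.1), with all 12 libraries fitted together and a mean-variance trend. P-values were two-sided and adjusted after Benjamini-Hochberg for each of 6 comparisons, at 0.05. Fold changes are on the log2(RPKM + 0.1) scale, which understates those of low genes. Precision is limited by 3 replicates. The scripts were tested on simulated data.

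Members, gene lists, motifs and ratios were chosen with earlier results of these data known. Genes outside the members were named by a rule, the 2 smallest adjusted p of each list in 3 comparisons, and others as members of a count, after their values were seen. For each member the 3 genes of highest correlation were found, and those of Elovl6 (in part) and Scd2 are printed. Some genes are not reported here. Positions are from GENCODE vM21 (GRCm38), promoters from RefSeq, and no coordinates were converted. Proteins were not compared here. The alternatives were pseudocounts of 0.01 and 1, no filter and a filter at 5 RPKM, no scaling, quantile normalization, a replicate block, no trend, only the groups compared, the log2 library total as a covariate, limma voom on the reads worked out, and each library left out. Figures used matplotlib 3.10.9 and python 3.11.15.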

Additional observations from a re-analysis of the deposited data

Results flagged for a closer look

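For Acsl4, an acyl-CoA synthetase, the libraries with and without OHT separated in opposite directions after scaling, but neither change passed. Every OHT library lay above every untreated one (log2 change 0.104, limma adjusted p = 0.0676), and every OHT_IACS library lay below every IACS one (-0.0435, 95% interval -0.13 to 0.05, limma adjusted p = 0.489). In the deposited RPKM the latter overlapped, at 10.5 to 10.8 in OHT_IACS and 10.8 to 11.2 in IACS cells. The interaction, which tests this difference, was -0.15 ± 0.059 SE and did not pass (limma, adjusted p = 0.327).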

How the results depend on the processing

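The number of members called kept within 1.5 times under the pseudocounts, filters, scalings, trend, covariate and limma voom in all 6 comparisons. With only the groups compared in the fit it was 2 instead of 4 for OHT_IACS against OHT and 8 instead of 4 for OHT_IACS against untreated. Calls over all tested genes moved the same way, to 1647 from 2310 and to 4638 from 3841. The cause was not tested. With the library total (log2) as a covariate the median change of the members was 0.0517 for OHT (0.12 without it) and -0.065 for OHT_IACS against untreated, which without the filter was -0.0611 over 10 genes. Leaving out each library in turn gave 3 to 5 members for OHT, 2 to 5 for IACS, 2 to 5 for OHT_IACS against OHT, 3 to 6 against IACS, 3 to 5 against untreated and 0 for the interaction.

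Over all genes, OHT called 3546 genes, 2351 with the covariate and 2650 to 4123 when a library was left out. With a library left out, OHT_IACS against IACS called 1880 to 2840 genes (2585 with all libraries) and OHT_IACS against untreated 3028 to 4293 (3841). IACS called 1548, with 951 to 1809 when a library was left out, OHT_IACS against OHT 2310, with 1524 to 2951, and the interaction 14, with 3 to 130 (130 without OHT replicate 2). The interaction called 7 without the filter, 5 without scaling, 34 by quantile normalization, 7 with the replicate block, 5 with the covariate and 25 by limma voom.

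Changes of sign, 27 in all, touched members only where neither fit called them (adjusted p of 0.264 or more). For OHT these were Acss2 with the covariate (-0.0136), Elovl5 without scaling (0.0205) or with only the groups compared (0.003), and Scd2 with the covariate (-0.0353) or by quantile normalization (-0.0435). For OHT_IACS against untreated it was Fads2 without scaling (0.0187) or by quantile normalization (0.0175). For the interaction these were Acly (0.0247 and 0.0155) and Scd2 (0.0954 and 0.1196) with the covariate and by quantile normalization, and Elovl6 by the latter (0.0049). With each library left out, Acss2 ran from -0.0063 to 0.0514 and Elovl5 from -0.0417 to 0.0445 with OHT, Acaca from -0.0227 to 0.0875 in OHT_IACS against OHT, Fads2 from -0.0285 to 0.0238 against untreated, and the interaction from -0.0613 to 0.0049 for Elovl6 and -0.0745 to 0.0451 for Scd2.

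Same-numbered libraries showed no clear shared deviation across conditions. Whether they were prepared together is not given in the sources used here. Deviations of the 18 same-numbered pairs correlated at -0.172 to 0.104 (median -0.0351), 1 of them above 0.1, and 1 of 12 libraries correlated best with its own number. With the replicate block, 1 further member passed, Acaca in OHT_IACS against untreated (adjusted p = 0.0349, 5 members instead of 4), and no other call on a member changed.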

Other observations

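The Myc gene itself was listed at 35.8 to 37.2 RPKM in untreated, 19.3 to 22.5 in OHT, 46.6 to 47.0 in IACS and 28.4 to 31.6 in OHT_IACS cells. How far transcripts of the transgene add to these values was not tested.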
